A study of Mus musculus with 8 samples.

Results

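The heat shock chaperones followed here were 10 genes measured in mouse uterine stroma: Hspa1a, Hspa1b, Hspa8, Hsph1, Dnajb1, Hsp90aa1, Hsp90ab1, Hspb1, Hspd1 and Hspe1. They were found by symbol among the 23420 gene symbols of the count tables, all 10 were present, and all 10 passed the filter on low counts. RNA was from stromal cells of the mouse uterus, all labelled day 3, with 4 replicates under the label Erbb3f/f and 4 under the label Erbb3d/d. In common notation f is a loxP-flanked and d a deleted allele of Erbb3, a receptor of the ERBB family. The Cre driver, the event from which the days are counted, the age of the mice and any pooling are not given in the sources used here, and the labels number the replicates without saying that each is a separate animal. The p-values therefore measure the spread between these libraries, which may be partly technical.

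Heat shock proteins are molecular chaperones that bind unfolded or maturing proteins and help them fold. The factor HSF1 binds repeated GAA units, called heat shock elements, upstream of their genes when unfolded protein builds up. HSP70 passes clients to HSP90, and in the uterus this relay with its co-chaperones holds the progesterone, oestrogen and glucocorticoid receptors ready to bind hormone. Some of these genes are classed as inducible, with expression that climbs steeply under stress (6 here: Hspa1a, Hspa1b, Dnajb1, Hsph1, Hsp90aa1 and Hspb1), and others as constitutive, with a high level in unstressed cells (4 here: Hspa8, Hsp90ab1, Hspd1 and Hspe1).

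The promoters are shown because the levels of the inducible HSP70 pair moved together across the libraries, and because Hspd1 and Hspe1 share a start region. Sequences are from RefSeq on GRCm38.p6, whose promoter table held 7 of the 10 members (without Hspa8, Hsp90aa1 and Hsp90ab1). Capitals mark heat shock units, written GAANNTTC or TTCNNGAA, each of which reads the same on both strands. The Hspa1a line covers chr17:34972157-34972406 and the Hspa1b line chr17:34959239-34959488, the 250 bases before each start on the minus strand. The Hsph1 line is chr5:149636351-149636380 on the minus strand, the Hspb1 line chr5:135887777-135887854 on the plus strand, and the last line chr1:55088053-55088082 on the plus strand, between the start of Hspe1 and 1 of the 2 listed starts of Hspd1.
Hspa1a: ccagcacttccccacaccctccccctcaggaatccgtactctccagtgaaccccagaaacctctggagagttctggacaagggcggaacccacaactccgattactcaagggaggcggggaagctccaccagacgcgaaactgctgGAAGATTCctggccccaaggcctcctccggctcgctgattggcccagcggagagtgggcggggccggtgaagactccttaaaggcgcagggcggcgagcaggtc
Hspa1b: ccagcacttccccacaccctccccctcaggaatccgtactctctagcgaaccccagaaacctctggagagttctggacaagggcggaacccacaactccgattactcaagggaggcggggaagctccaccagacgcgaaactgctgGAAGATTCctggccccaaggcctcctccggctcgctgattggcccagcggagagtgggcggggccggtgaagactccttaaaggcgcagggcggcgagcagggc
Hsph1: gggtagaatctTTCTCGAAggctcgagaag
Hspb1: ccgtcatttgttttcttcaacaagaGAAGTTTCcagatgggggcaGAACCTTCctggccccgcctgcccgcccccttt
Hspe1 and Hspd1: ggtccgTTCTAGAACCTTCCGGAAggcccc

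The Hspa1a and Hspa1b stretches were identical at 247 of 250 positions. The differences, counted from 1 at the 5′ end with the Hspa1a base first, were C44T, T47C and T249G. Each holds 1 GAANNTTC, which begins 104 bases before the start. Of the 7 members in the table, 6 had at least 1 such 2-unit match in the 300 bases from 250 before to 50 after a start, against 15.1% of 32851 promoter windows of that length. A member with more than 1 listed start counts if any of its windows matched, while the percentages here are of single windows. The 6 are not separate cases, since the Hspa1a and Hspa1b stretches are near-identical and Hspd1 and Hspe1 share a site. A match of 3 alternating units (GAA, TTC and GAA, or TTC, GAA and TTC, with NN between neighbours), which contains both 2-unit forms and was searched on both strands, was found in 3 members, against 0.603% of those windows. For Hspd1 and Hspe1 it is the same site, read from opposite strands, and for Hsph1 it lies after the RefSeq starts. The printed Hsph1 line shows a 2-unit match that is before both RefSeq starts but inside an Hsph1 exon of GENCODE vM21. The last line likewise overlaps an Hspd1 exon there. Dnajb1 had none of these letters in either of its windows. A match describes the sequence and does not show binding.

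The libraries held 8578575 to 12854367 reads in genes, without a difference between the labels that passed the test (two-sided exact permutation test over 70 assignments, p = 0.771). Erbb3 had 9.63 ± 2.24 CPM (SD, n = 4) in libraries labelled Erbb3f/f and 13.9 ± 4.55 CPM (SD, n = 4) in those labelled Erbb3d/d, and the difference did not pass edgeR's test (adjusted p = 0.484). CPM gives a gene's reads as a share of all reads in genes after scaling between libraries. The mean of the targeted gene was thus above, not below, that of the Erbb3f/f libraries. The counts cover the whole gene and the deleted stretch is not given, so every direction below follows the labels alone. All 10 stromal markers examined, such as Vim, Pdgfra, Hoxa10 and Dcn, were present. Log2 fold changes, Erbb3d/d over Erbb3f/f, were below 0 for 7 and above 0 for 3, Dcn among the latter (0.38). At an unadjusted p under 0.05, 4 were lower under Erbb3d/d and 0 higher, where 4.97% of all genes were lower. The 10 epithelial markers summed to 685 to 1151 CPM under Erbb3f/f and 1118 to 1953 CPM under Erbb3d/d, and the 10 smooth muscle markers to 1276 to 2350 and 1994 to 4649 CPM. In each of these 2 lists 9 of 10 genes had a higher mean under Erbb3d/d at an unadjusted p under 0.05, where 6.64% of all genes did, and no marker was at 0. At the same p, 0 of 8 endothelial markers passed, and of 9 immune markers tested 2 were lower and 0 higher. In RNA from many cells, more cells of a type and more RNA per cell cannot be told apart.

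The inducible HSP70 genes varied most, and they varied within both labels. Hspa1a and Hspa1b encode the stress-inducible cytosolic HSP70 and lie side by side on chromosome 17 (GRCm38, GENCODE vM21), at 34969190 to 34972156 and 34956436 to 34959238, each with 1 exon. Hspa1a had 418, 144, 301 and 395 CPM in replicates 1 to 4 labelled Erbb3f/f, and 531, 144, 227 and 101 CPM in replicates 1 to 4 labelled Erbb3d/d. Hspa1b had 562, 237, 393 and 569 CPM in the former and 648, 225, 353 and 190 CPM in the latter. The highest library (Erbb3d/d replicate 1) and the lowest (Erbb3d/d replicate 4) carry the same label, and the groups overlap fully. From lowest to highest library the level spanned 5.25-fold for Hspa1a and 3.41-fold for Hspa1b. Erbb3f/f replicate 2 and Erbb3d/d replicate 2 were low for both genes.

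**Figure D1:**
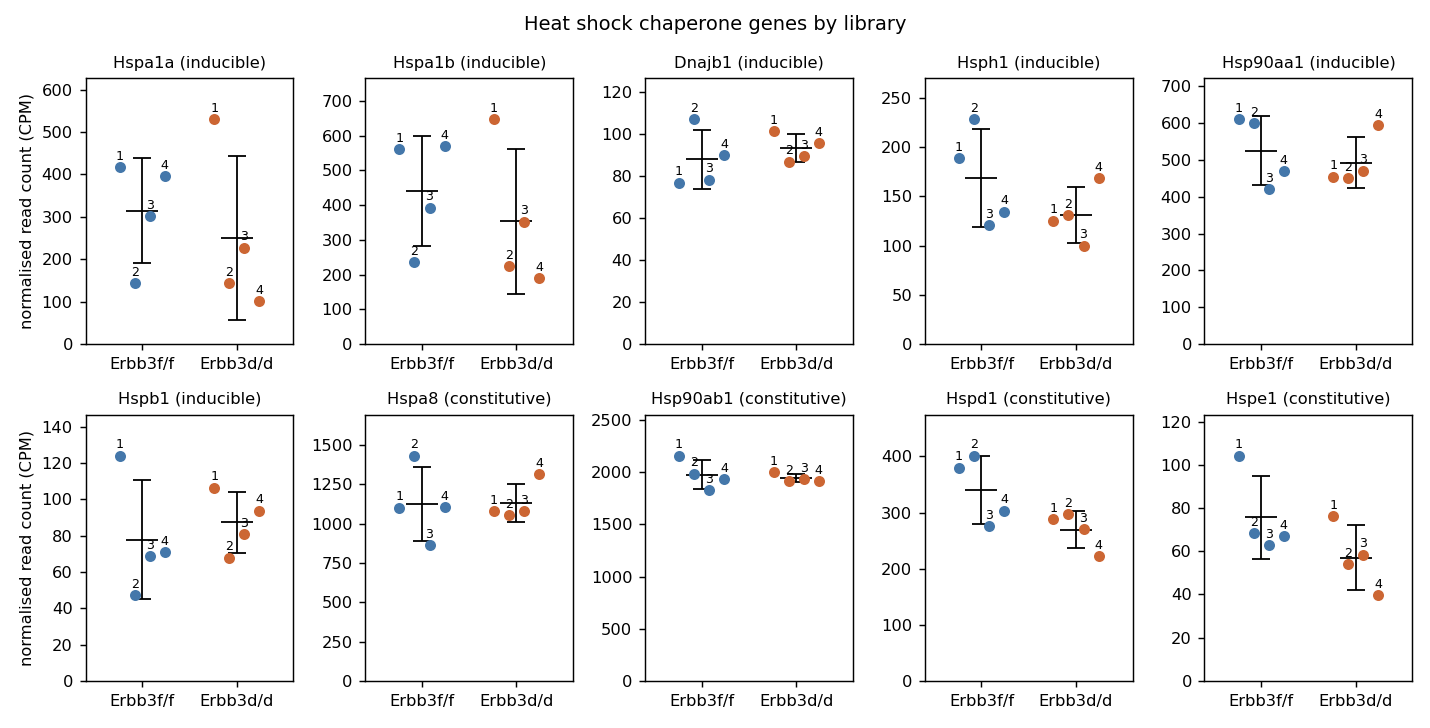
Normalised read count in CPM (vertical axes from 0) of the 10 chaperone genes in the 4 libraries labelled Erbb3f/f (blue) and the 4 labelled Erbb3d/d (orange). Points carry the replicate number and the black bars are mean ± SD; for every gene the groups overlap, and Hspa1a runs from 101 to 531 CPM inside the Erbb3d/d label.

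The 2 copies are alike over part of their sequence. Of the 150-base windows of the Hspa1a transcript, a read's length, 38.1% occur unchanged in the Hspa1b transcript, and 40.5% of those of Hspa1b occur in Hspa1a. A single read from such a window fits both genes. The reads are paired, and a mate outside such a window can still place the pair. The window shares thus do not measure how many pairs were lost. In each library 3.49% to 4.05% of entries were counted as aligned to more than 1 place, so both levels are uncertain. Of the reads counted in either gene, Hspa1a took 42.6%, 37.9%, 43.4% and 41.0% across Erbb3f/f replicates 1 to 4 and 45.0%, 39.0%, 39.2% and 34.7% across Erbb3d/d replicates 1 to 4. The 95% Wilson intervals of these shares were at most 1.70 percentage points to either side, which covers counting error alone. The share was largest in Erbb3d/d replicate 1, where the summed level was highest at 1178 CPM, and smallest in Erbb3d/d replicate 4, where it was lowest at 291 CPM. The mean share was 41.2% ± 2.44 under Erbb3f/f and 39.5% ± 4.24 under Erbb3d/d (SD, n = 4 each). In the annotation Hspa1a also shares 564 exonic bases with Gm20481 on the other strand, a symbol that the tables do not list.

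Hspa8, the constitutive cytosolic HSP70 (HSC70), did not follow its inducible relatives. It lies on chromosome 9 at 40800984 to 40810087. It had 1102, 1432, 864 and 1103 CPM in Erbb3f/f replicates 1 to 4 and 1082, 1056.5, 1081 and 1313 CPM across Erbb3d/d replicates 1 to 4. Its highest values were in Erbb3f/f replicate 2 and Erbb3d/d replicate 4, which were among the 3 lowest libraries for both Hspa1a and Hspa1b. The inducible pair took 47.1%, 21.0%, 44.5% and 46.6% of the reads of the 3 HSP70 members across Erbb3f/f replicates 1 to 4, and 52.1%, 25.8%, 34.9% and 18.2% across Erbb3d/d replicates 1 to 4 (95% Wilson intervals of at most 0.776 points to either side). The summed HSP70 level spanned 1.59-fold across libraries, less than the 4.04-fold of the inducible pair. When the exons of all annotated Hspa8 transcripts are merged, into 3, they also cover bases of Snord14c, Snord14d and Snord14e, small nucleolar RNAs on the same strand. This does not say that each Hspa8 transcript holds them.

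The partners of HSP70 moved over a smaller range. Dnajb1, the J-domain protein (HSP40) that delivers clients to HSP70 and starts its ATP hydrolysis, lies on chromosome 8 at 83608193 to 83612653. It had 76.8, 107, 78.2 and 89.7 CPM in Erbb3f/f replicates 1 to 4 and 101, 86.7, 89.2 and 95.5 CPM across Erbb3d/d replicates 1 to 4. Although classed as inducible, it was lowest in Erbb3f/f replicate 1, where Hspa1a was among the highest. Hsph1, the HSP110 nucleotide exchange factor that releases clients from HSP70, lies on chromosome 5 at 149614287 to 149636376. It had 189, 229, 121 and 135 CPM in Erbb3f/f replicates 1 to 4 and 125, 131, 99.97 and 169 CPM across Erbb3d/d replicates 1 to 4. Both genes peaked in Erbb3f/f replicate 2, a library low in Hspa1a and Hspa1b.

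Hsp90ab1 was the most even of the members, and Hsp90aa1 was less so. Hsp90ab1, the constitutive cytosolic HSP90 that keeps steroid receptors in their hormone-binding form, lies on chromosome 17 at 45567775 to 45573271. It had 2159, 1987, 1828 and 1935 CPM in Erbb3f/f replicates 1 to 4 and 1998, 1918, 1936 and 1916 CPM across Erbb3d/d replicates 1 to 4, a span of 1.181-fold. Hsp90aa1, its inducible counterpart, lies on chromosome 12 at 110690605 to 110702728 and had 610, 599, 420 and 470 CPM in Erbb3f/f replicates 1 to 4 and 454, 450, 471 and 594 CPM across Erbb3d/d replicates 1 to 4. Of the reads in both HSP90 genes, Hsp90aa1 took 18.5% (Erbb3d/d replicate 1) to 23.7% (Erbb3d/d replicate 4). The libraries with the largest Hsp90aa1 share were Erbb3d/d replicate 4, Erbb3f/f replicate 2 and Erbb3f/f replicate 1. The library with the most Hspa1a had the smallest Hsp90aa1 share.

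Hspd1 (HSP60) and Hspe1 (HSP10) form the folding chamber and its lid in the mitochondrial matrix, and their genes stand head to head on chromosome 1, at 55077835 to 55088243 and 55088132 to 55091307. They share 112 exonic bases on opposite strands, which a library without strand cannot assign. Hspd1 had 380, 401, 275 and 304 CPM in Erbb3f/f replicates 1 to 4 and 288, 298, 271 and 223 CPM across Erbb3d/d replicates 1 to 4. Hspe1 had 104, 68.4, 62.9 and 67.1 CPM in the former and 76.3, 53.9, 58.5 and 39.6 CPM in the latter. Erbb3d/d replicate 4 was the lowest library for both. Despite the shared start region, Hspe1 took from 14.6% (Erbb3f/f replicate 2) to 21.5% (Erbb3f/f replicate 1) of the reads of the pair, with Wilson intervals of at most 1.32 points to either side. The annotation names 5 Hspd1 and 6 Hspe1 pseudogenes, so reads alike in gene and copy make both levels uncertain.

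Hspb1 (HSP25/27), a small heat shock protein that holds unfolded proteins without ATP and binds actin, lies on chromosome 5 at 135887919 to 135889563. It had 124, 47.3, 68.8 and 70.9 CPM in Erbb3f/f replicates 1 to 4 and 106, 67.8, 80.8 and 93.7 CPM across Erbb3d/d replicates 1 to 4. It was high in replicate 1 of both labels, as Hspa1a was, and low in Erbb3f/f replicate 2. In Erbb3d/d replicate 4 it was above its own mean, while Hspa1a was at its lowest.

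**Figure D2:**
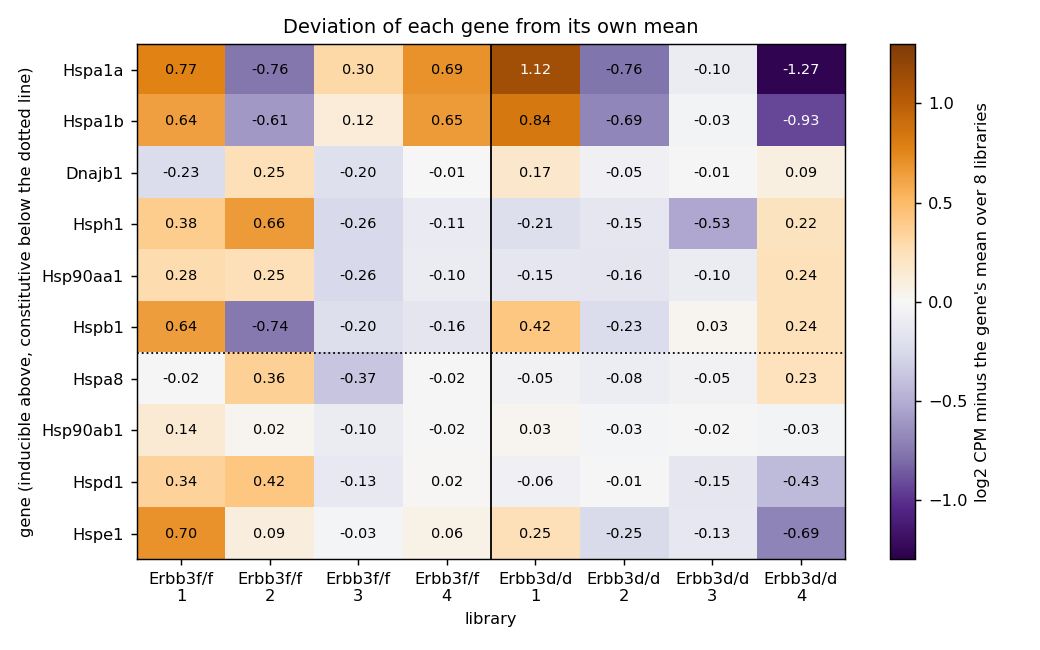
Log2 CPM of each gene (rows) minus that gene's mean over the 8 libraries (columns), orange above and purple below the mean. Hspa1a spans -1.27 (Erbb3d/d replicate 4) to 1.12 (Erbb3d/d replicate 1), Hsp90ab1 stays between -0.10 and 0.14, and Hspa8 and Hsph1 are above their means in Erbb3f/f replicate 2 (0.36 and 0.66), where Hspa1a and Hspa1b are at -0.76 and -0.61.

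Set against all abundant genes, the inducible HSP70 pair spread widely between libraries of the same label, and Hsp90ab1 hardly at all. The SD of log2 CPM within a label was 0.88 for Hspa1a, more than in 99.3% of the 11038 tested genes with a mean of at least 10 CPM, and 0.70 for Hspa1b, more than in 98.1%. Hspb1 (0.45) lay above 91.7% of these genes, Hsph1 (0.37) above 86.1% and Hspe1 (0.36) above 85.2%. Hspa8, Hsp90aa1 and Hspd1 lay near one another, with SDs of 0.23, 0.23 and 0.23, above 61.9% to 64.5% of genes. Dnajb1 (0.17) was above 42.3% and Hsp90ab1 (0.074) above 2.91%. The classes do not divide by spread, since inducible Dnajb1 varied less than constitutive Hspe1. These are descriptions of 8 libraries and carry no test.

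**Figure D3:**
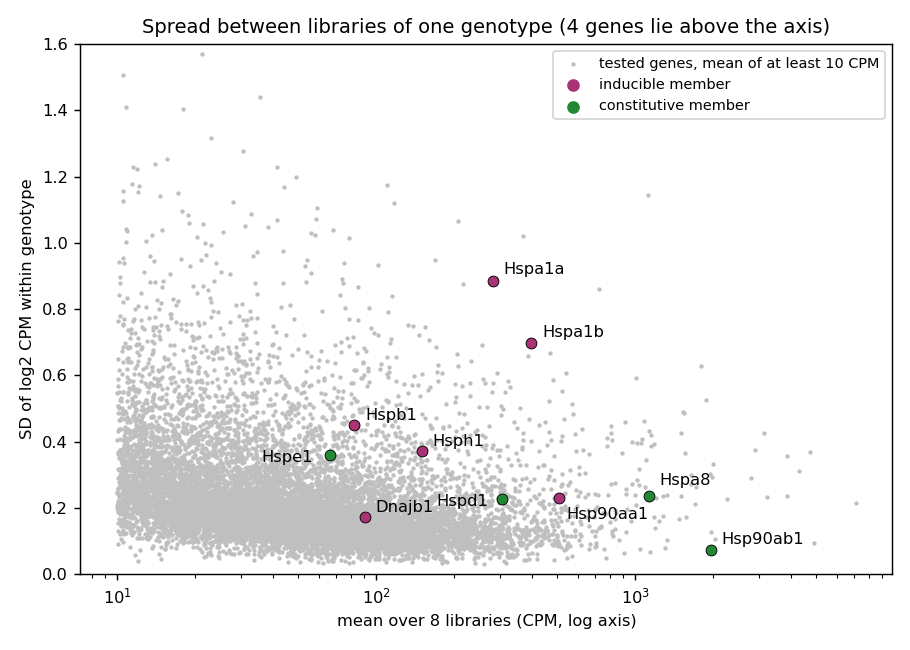
SD of log2 CPM within a label (vertical axis) against mean CPM (log horizontal axis) for tested genes with a mean of at least 10 CPM in grey, with inducible members in purple and constitutive members in green; 4 genes lie above the axis. Hspa1a (0.88) and Hspa1b (0.70) lie above most genes of like level and Hsp90ab1 (0.074) below most.

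Dividing by the kilobases of merged exons compares levels of different genes only roughly. Merged exons join all annotated transcripts, so a level is understated where the transcript made is shorter. The merged length was 2999 bases for Hsp90ab1, 4301 for Hspa8 and 7266 for Hsph1, and the order depends on these lengths. Reads shared with copies add to the uncertainty for Hspa1a, Hspa1b, Hspd1 and Hspe1. By this measure the order in libraries labelled Erbb3f/f began with Hsp90ab1 at 659 ± 46.1 CPM per kb and Hspa8 at 262 ± 54.3 CPM per kb (SD, n = 4 each). On this scale Hsp90ab1 exceeded Hspa8 in every library, its lowest value (609) being above the highest of Hspa8 (333). Hspa1b (157 ± 56.4), Hsp90aa1 (134 ± 24.1), Hspd1 (129 ± 22.8) and Hspa1a (106 ± 41.8 CPM per kb) followed. Then came Hspb1 (75.4 ± 31.6), Hspe1 (51.3 ± 13.01), Dnajb1 (27.4 ± 4.36) and Hsph1 (23.2 ± 6.84 CPM per kb). Apart from the first pair, the ranges of all neighbours in this order overlapped over the 8 libraries. The order under Erbb3d/d was the same but for Hspa1a (84.5 ± 65.3) and Hspb1 (84.6 ± 16.1 CPM per kb), which changed places by less than their spread.

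The comparison of the labels asked whether chaperone levels differed between stromal cells labelled Erbb3f/f and Erbb3d/d. No member passed an adjusted p of 0.05 over the 14598 genes tested in edgeR's quasi-likelihood test (0 of 10), where 0% of all genes were called (0 genes). Without Erbb3d/d replicate 2, edgeR called 1.75% of genes and 0 members. DESeq2 also called 0 of the 10, while calling 270 of the 19283 genes with a read (1.40%). That total includes any genes that DESeq2's own filter left without an adjusted p, so the share may be understated. At an unadjusted p under 0.05, edgeR gave 1 member, Hspd1, and 11.6% of all genes, so the share among the members is near the background. The values of the labels did not overlap for 0 of the 10 members, against 5.05% of all genes (2.57% higher and 2.48% lower under Erbb3d/d). Log2 fold changes, Erbb3d/d over Erbb3f/f, were above 0 for 3 members and below 0 for 7, where 48.0% of all genes lay above 0, with a median of -0.20 against -0.01 for all genes tested.

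Among the constitutive members, Hspd1 had 340 ± 60.3 CPM under Erbb3f/f and 270 ± 33.3 CPM under Erbb3d/d (SD, n = 4 each), giving a log2 fold change of -0.33 (SE 0.14). Its adjusted p was 0.396 in edgeR's test and 0.337 in DESeq2, the smallest of the members in each. Hspe1 had 75.7 ± 19.2 and 57.1 ± 15.1 CPM, a log2 fold change of -0.41 (SE 0.21) (adjusted p = 0.499, edgeR). Without Erbb3f/f replicate 1, the library with the most Hspe1, it was -0.21, and without Erbb3d/d replicate 4, the library with the least, it was -0.26. For Hsp90ab1 the 95% interval of the log2 fold change ran from -0.25 to 0.20 and for Hspa8 from -0.33 to 0.35. A 2-fold change in either direction lies outside both intervals.

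Among the inducible members the libraries limit what could be seen. Hspa1a had 315 ± 124 CPM under Erbb3f/f and 251 ± 194 CPM under Erbb3d/d (SD, n = 4 each). The fitted log2 fold change was -0.33 (SE 0.52, adjusted p = 0.841 in edgeR's test), and the 95% interval, from -1.50 to 0.84, includes changes of more than 2-fold downwards. Without Erbb3d/d replicate 1 the log2 fold change was -0.998 and without Erbb3d/d replicate 4 it was -0.06, so single libraries set its size. Hspa1b had 440 ± 158 and 354 ± 208 CPM, a log2 fold change of -0.31 (SE 0.41) with an interval from -1.25 to 0.62. Its fold change ran from -0.78 to -0.10 without the same 2 libraries in turn. Hsph1 stood at -0.36 (SE 0.22), Hsp90aa1 at -0.09 (SE 0.14), Dnajb1 at 0.08 (SE 0.12) and Hspb1 at 0.17 (SE 0.27), with adjusted p-values from 0.553 to 0.846 in edgeR's test.

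Inducible and constitutive members did not part between the labels. In each library the mean log2 CPM of the 4 constitutive members was taken from that of the 6 inducible members. The difference was -1.13, -1.64, -1.19 and -1.11 across Erbb3f/f replicates 1 to 4 and -0.94, -1.51, -1.298 and -1.26 across Erbb3d/d replicates 1 to 4. It averaged -1.27 ± 0.25 under Erbb3f/f and -1.25 ± 0.24 under Erbb3d/d (SD, n = 4 each), so the labels differed by 0.016, far less than the spread. The lowest value of each label was in its replicate 2. No p is given for a score over chosen genes.

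**Figure D4:**
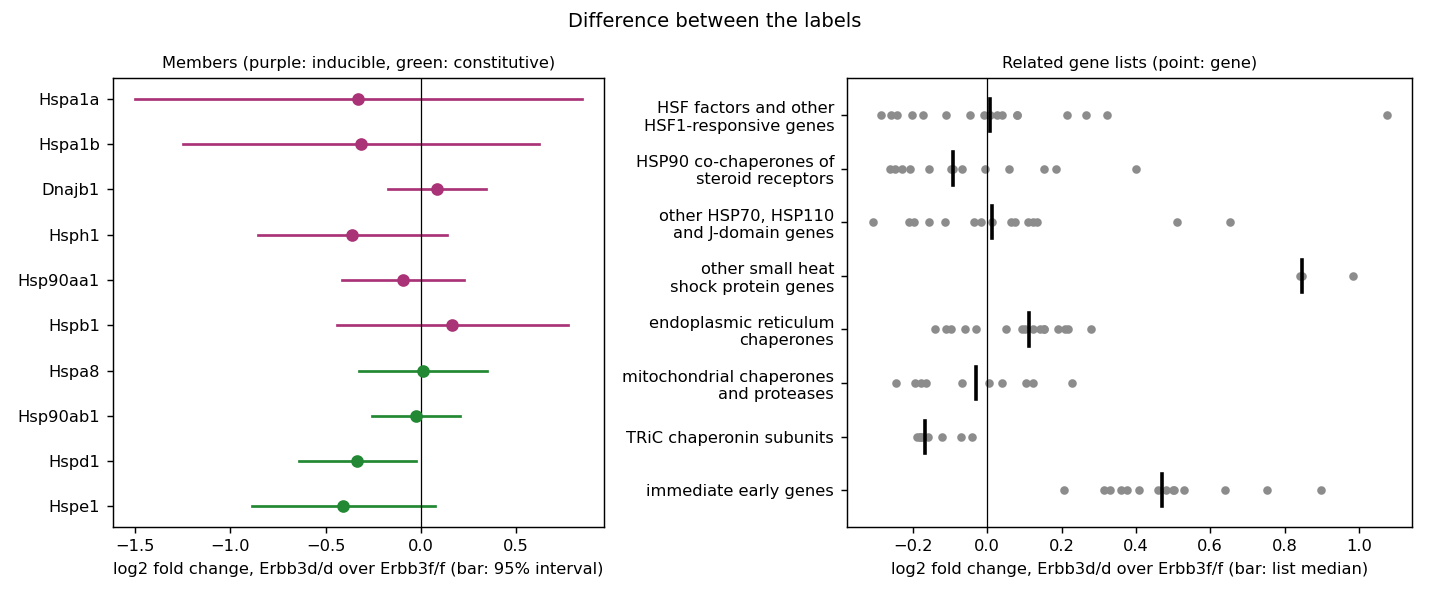
Log2 fold change, Erbb3d/d over Erbb3f/f, of the 10 members with 95% intervals (left) and of each tested gene in 8 related lists (right; grey points, with a black bar at the list median). The member intervals include 0 except that of Hspd1 (-0.64 to -0.03, unadjusted). The 3 tested genes of the small heat shock protein list (Hspb6, Hspb7 and Hspb11, the last near the floor) and the 14 immediate early genes lie above 0. Hspb8 (-0.26) and Cryab (1.07), also small heat shock proteins, are drawn in the HSF1 list.

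Genes around the members were read from 8 lists chosen with earlier results of these data known, and edgeR called 0 genes in each. HSF factors and other HSF1-responsive genes (17 tested) had a median log2 fold change of 0.01, with 1 gene higher and 2 lower at an unadjusted p under 0.05, where 6.64% of all genes were higher and 4.97% lower. Hsf1 itself had 49.0 ± 5.35 CPM under Erbb3f/f and 45.4 ± 1.32 CPM under Erbb3d/d (SD, n = 4 each). The genes with the smallest p-values in that list were Cryab, a small heat shock protein (10.6 ± 1.78 and 22.4 ± 6.44 CPM, log2 fold change 1.07, adjusted p = 0.183 in edgeR's test), and Ahsa1, which speeds the HSP90 ATPase (79.2 ± 8.89 and 67.0 ± 1.23 CPM, log2 fold change -0.24). For Cryab all 4 libraries labelled Erbb3d/d lay above all 4 labelled Erbb3f/f, and for Ahsa1 all lay below. Of all genes 2.57% lay above and 2.48% below in this way. DESeq2 called Cryab (adjusted p = 0.00319), where it called 1.40% of the 19283 genes with a read.

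Co-chaperones through which HSP90 serves steroid receptors (13 tested) had a median of -0.09, with 1 gene, against 11.6% of all genes, at an unadjusted p under 0.05. That gene was Fkbp4, the immunophilin FKBP52 on which progesterone receptor function in the uterus is known to depend. It had 264 ± 35.7 CPM under Erbb3f/f and 348 ± 42.7 CPM under Erbb3d/d (SD, n = 4 each), giving a log2 fold change of 0.40 (SE 0.12) (adjusted p = 0.305, edgeR). Its labels did not overlap, where 2.57% of all genes were higher under Erbb3d/d without overlap. Ptges3 (p23), which closes the receptor complex, had 212 ± 33.8 and 179 ± 9.66 CPM and a log2 fold change of -0.25.

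Other HSP70, HSP110 and cytosolic J-domain genes (15 tested) had a median of 0.01. Hspa2, an HSP70 best known from the testis, had 29.6, 39.1, 31.1 and 34.6 CPM in Erbb3f/f replicates 1 to 4 and 66.5, 45.4, 46.8 and 52.3 CPM across Erbb3d/d replicates 1 to 4, without overlap (log2 fold change 0.65, adjusted p = 0.196 in edgeR's test and 0.0104 in DESeq2). Dnajb5 had 23.2 ± 2.41 and 33.1 ± 6.998 CPM, a log2 fold change of 0.51. These 2 of the 15 genes were higher under Erbb3d/d without overlap, where 2.57% of all genes were. Endoplasmic reticulum chaperones (16 tested) had a median of 0.11 and mitochondrial chaperones and proteases (10 tested) -0.03. The 8 subunits of the TRiC chaperonin, which folds actin and tubulin, had a median of -0.17. All 8 lay below 0, where 48.0% of all genes lay above 0. The smallest p-values were those of Dnajb9 (log2 fold change 0.28) and P4hb (-0.14), of Afg3l2 (-0.20) and Clpp (-0.25), and of Cct3 (-0.19) and Cct7 (-0.17), with adjusted p-values from 0.408 to 0.689 in edgeR's test.

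The 3 tested genes in the list of other small heat shock proteins, Hspb6, Hspb7 and Hspb11, had higher means under Erbb3d/d than under Erbb3f/f. Hspb11 lay near the floor, from 0.31 to 2.45 CPM over the 8 libraries (log2 fold change 0.84, adjusted p = 0.593 in edgeR's test). Hspb8, a small heat shock protein placed in the HSF1 list, went the other way. It had 127 ± 21.1 CPM under Erbb3f/f and 106 ± 12.3 CPM under Erbb3d/d (log2 fold change -0.26, adjusted p = 0.474 in edgeR's test). Of the 6 genes in the small heat shock protein list, 3 passed the filter on low counts, and Hspb3 had no read in any library. Hspb6 had 7.40, 5.23, 6.12 and 5.08 CPM in Erbb3f/f replicates 1 to 4 and 14.8, 10.7, 8.97 and 8.50 CPM across Erbb3d/d replicates 1 to 4 (log2 fold change 0.85, adjusted p = 0.283 in edgeR's test). Hspb7 had 12.4, 16.7, 8.24 and 10.96 CPM in the former and 37.8, 17.5, 24.01 and 16.04 CPM in the latter (log2 fold change 0.98, adjusted p = 0.304 in edgeR's test). Both proteins are known from muscle. The mean log2 CPM of the 10 smooth muscle markers ran from 5.96 to 7.10 under Erbb3f/f and from 6.98 to 8.18 under Erbb3d/d. Of these markers 9 of 10 were higher at an unadjusted p under 0.05, where 6.64% of all genes were. Hspb6, Hspb7 and Hspa2 were highest in Erbb3d/d replicate 1, as the smooth muscle mean was. In Erbb3d/d replicate 4 that mean was second highest (7.63). Hspa2 was also second highest there (52.3 CPM), but Hspb6 and Hspb7 were at their lowest under that label (8.50 and 16.04 CPM). Epithelial markers were highest in Erbb3d/d replicates 3 and 4 (mean log2 CPM 6.93 and 7.02). Cryab (25.8 and 28.5 CPM) and Fkbp4 (382 and 383 CPM) were also highest there. So was the mean log2 CPM of the endoplasmic reticulum chaperones (7.90 and 7.95). The part of smooth muscle or epithelial cells in the levels of Hspb6, Hspb7, Cryab, Hspa2 and Fkbp4 was not tested.

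**Figure D5:**
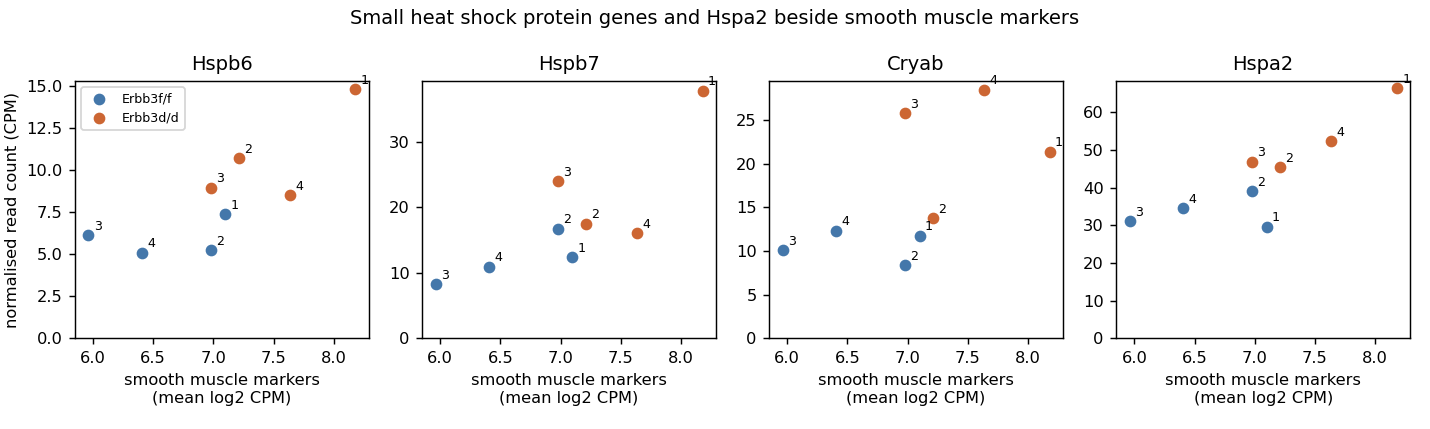
CPM of Hspb6, Hspb7, Cryab and Hspa2 (vertical axes from 0) against the mean log2 CPM of 10 smooth muscle markers in the same library, blue for Erbb3f/f and orange for Erbb3d/d, with replicate numbers. Erbb3d/d replicate 1 has the highest marker mean (8.18) and the highest Hspb6 (14.8 CPM), Hspb7 (37.8 CPM) and Hspa2 (66.5 CPM), while Cryab is highest in Erbb3d/d replicate 4 (28.5 CPM). Erbb3d/d replicate 4 has the second highest marker mean (7.63) and the lowest Hspb6 (8.50 CPM) and Hspb7 (16.04 CPM) of its label.

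Immediate early genes, which respond within minutes to growth factors, had log2 fold changes above 0 in all 14 tested, where 48.0% of all genes did. Their median was 0.47 against -0.01 for all genes, and 3 were higher at an unadjusted p under 0.05, where 6.64% of all genes were. Ier3 had 51.1 ± 10.9 CPM under Erbb3f/f and 86.1 ± 18.4 CPM under Erbb3d/d, and Klf6 284 ± 57.0 and 403 ± 60.2 CPM (SD, n = 4 each), with adjusted p-values of 0.274 and 0.296 in edgeR's test. DESeq2 called Ier3 (adjusted p = 0.0239), as did edgeR without Erbb3d/d replicate 2 (adjusted p = 0.0308). Their mean log2 CPM was 8.95, 8.005, 8.78 and 8.56 across Erbb3f/f replicates 1 to 4 and 9.49, 8.66, 8.89 and 9.21 across Erbb3d/d replicates 1 to 4. As with Hspa1a, the highest library was Erbb3d/d replicate 1 and Erbb3f/f replicate 2 was low. Erbb3d/d replicate 4 was second highest for these genes and lowest for Hspa1a.

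The genes whose profile lay nearest to the mean of Hspa1a, Hspa1b, Dnajb1 and Hsph1 were sought among 11028 other genes with a mean of at least 10 CPM, by the root mean square distance of centred log2 CPM over the 8 libraries. They were 4930592A05Rik (0.086), Igfbp6 (0.12), Tnfaip6 (0.13), 1110012L19Rik (0.14) and Atf5 (0.14 log2 units), where the reference profile itself departed from its mean by 0.34. Igfbp6, a binding protein for insulin-like growth factors, had 332, 236, 306 and 316 CPM in Erbb3f/f replicates 1 to 4 and 365, 222, 228 and 222 CPM across Erbb3d/d replicates 1 to 4. Tnfaip6, a hyaluronan-binding protein, had its highest value, 31.7 CPM, in Erbb3d/d replicate 1 and its lowest, 12.5 CPM, in Erbb3d/d replicate 4, the libraries that were also the extremes for Hspa1a. Hspa1a and Hspa1b are part of the reference, so shared extremes follow in part from how the genes were picked. The 4 reference genes did not move together. In Erbb3f/f replicate 2, Hspa1a and Hspa1b were at -0.76 and -0.61 from their means, and Hsph1 and Dnajb1 at 0.66 and 0.25. With 8 libraries and this many genes, near profiles are a description.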

How the data were processed

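The authors deposited 1 table of raw read counts per library, for 23420 gene symbols and 5 closing lines that name no gene. They entered neither library totals nor fits; reads assigned to genes were 27.0% to 29.1% of all entries. Per the submitters' processing notes HISAT2, SAMtools, HTSeq and StringTie were used with mm10 (GRCm38); versions, options and annotation are not given in the sources used here. Per the labels' protocols the libraries were polyadenylated, non-directional, and read as pairs of 150 bp.

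Genes were kept by filterByExpr (14598) and scaled by TMM. Labels were compared with edgeR 4.0.16 (limma 3.58.1, R 4.3.3), quasi-likelihood test, two-sided, with Benjamini-Hochberg adjustment over all genes. Log2 CPM used a prior count of 2. No library pair agreed within counting noise. The alternatives were DESeq2 1.42.0, other scalings, no filter, the replicate number as a block, and leaving out each library. Members and lists were chosen with earlier results of these data known. The genes named are the 10 members, the 2 smallest p-values of each list, the 5 nearest profiles and Erbb3; other list genes were named after their values were seen.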

Additional observations from a re-analysis of the deposited data

Results flagged for a closer look

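In 5 of 30 groups of 4 libraries 1 library lay far from the other 3 (a gap above Dixon's 95% critical value), where 1.5 would be expected at the chance rate of about 1 in 20; the groups share libraries and genes. Under Erbb3d/d, replicate 4 had 1313 CPM of Hspa8, the next library having 1082, and 594 CPM of Hsp90aa1, the next having 471. Under Erbb3f/f, replicate 1 had 104 CPM of Hspe1, the next having 68.4. Erbb3f/f replicate 2 had an inducible minus constitutive level of -1.64, the next being -1.19, and its inducible pair took 21.0% of the HSP70 reads, the next share being 44.5%.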

How the results depend on the processing

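The count of members called was 0 in edgeR with each scaling, without the low count filter, with the block, without each library in turn, and in DESeq2. Over all genes the count of 0 became 270 with DESeq2 (212 higher, 58 lower) and 52 with the replicate number as a block, and ran from 0 to 259 when one library was left out, 259 being without Erbb3d/d replicate 2. Of 132 refitted member fold changes, 128 kept their direction and 4 turned it, none past the threshold. Leaving out one library, Hspa8 ran from -0.10 to 0.16, Hsp90ab1 from -0.062 to 0.027 and Hspb1 from -0.0027 (without Erbb3f/f replicate 2) to 0.49 (without Erbb3f/f replicate 1) on the log2 scale; the cause was not tested. The difference between inducible and constitutive members ran from -0.11 to 0.10 when one library was left out, was -0.10 without Hsp90aa1 and Hspb1 and 0.08 with Hspa1a and Hspa1b summed, all moves within the spread between libraries. Outside the members, DESeq2 called Cryab (adjusted p = 0.00319), Hspa2 (0.0104) and Ier3 (0.0239), edgeR with the block called Ier3 (0.0355), and edgeR without Erbb3d/d replicate 2 called Cryab (0.0143), Hspa2 (0.0429) and Ier3 (0.0308). Deviations of same-numbered libraries correlated at 0.22, 0.16, 0.096 and 0.15 across genes, and 3 of the 4 Erbb3f/f libraries correlated best with their own number. One of the 4 missed the 0.1 asked of every pair and no label names a shared source, so the numbers were not taken to pair the samples. With the block, the smallest adjusted p of a member was 0.174 (Hspe1, edgeR's test). The log2 fold change of Hspa1a was then -0.48 with an SE of 0.35, against an SE of 0.52 without the block. Every member had at least 452 reads in each library, so the spread between libraries, rather than counting, limits these comparisons.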
